A study of Mus musculus with 4 samples.

Results

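The genes of the leukaemia inhibitory factor (LIF) and STAT3 pathway were examined in chromatin accessibility data from mouse embryonic stem cells (ESCs). The members were 7 genes listed by name, Lifr, Il6st, Jak1, Jak2, Stat3, Socs3 and Ptpn11, of 21938 protein-coding genes in GENCODE mouse release 21, by a rule that uses no measured value, although the list was drawn up with earlier results of these data known. Accessibility was measured by ATAC-seq, which uses a transposase to cut and tag the DNA that is open, and the data were 4 lists of peaks, the intervals where such insertions pile up. All 4 libraries came from E14, an established mouse ESC line kept in serum with LIF, so the ligand of the pathway was present in every culture. The cells were infected with a pLKO lentivirus, selected with puromycin for 2 days and harvested 2 days later. There was 1 library with a hairpin against GFP (shGFP) and there were 3 with a hairpin against luciferase (shLuc, replicates 1, 2 and 3). Neither hairpin has a target among mouse genes, so all 4 libraries are controls, and their comparison shows only how control libraries differ. An exact permutation test of 1 library against 3 cannot go below p = 0.25, and no test across samples was run.

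LIF binds the LIF receptor (LIFR), which pairs with gp130, the product of Il6st. Janus kinases held by the receptor chains then phosphorylate STAT3, which enters the nucleus and binds DNA, and in mouse ESCs this keeps the cells self-renewing. SOCS3 is induced by STAT3 and shuts the receptor down, and the phosphatase SHP2, encoded by Ptpn11, links the receptor to the MAP kinase cascade.

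The shGFP list held 41943 peaks and the shLuc lists 17860, 41401 and 31585, and the number of reads behind each list is not in the files. A gene without a listed peak may thus lie under the threshold in a shorter list. Peak lists were joined where peaks overlapped, which gave 52714 regions over the genome and 42 regions over the 7 genes and 50 kb on either side of them. ESC marker genes with a peak at a transcript start, within 1 kb, numbered 1, 1, 2 and 2 of 8 in shGFP and shLuc replicates 1, 2 and 3. Zfp42 had one in all 4 libraries, but Pou5f1, Sox2 and Nanog, which define the cell type, had none in any. Of 5 fibroblast or feeder genes 3, 2, 4 and 2 had one. Col1a1 and Thy1 had one in all 4 libraries, Col1a2 in 2, Twist2 in shLuc replicate 2 alone and Col3a1 in none. Of 5 genes of other lineages 0, 0, 1 and 0 had one. Among all protein-coding genes the shares were 60.7%, 46.8%, 60.3% and 55.1%, so the fibroblast counts were not set apart from coding genes at large. The part of other cells in the peaks below was not tested.

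Stretches from 4 regions that hold the STAT motif, and from 3 that lack it, are shown first, because STAT3 acts through this motif. They are written 5′ to 3′ on the strand of the named gene and were read from the RefSeq GRCm38 genome, whose coordinates are those of mm10. Each is a stretch of at most 300 bases shared by the peaks of all libraries that listed the region. Capitals mark TTCNNNGAA, a palindrome searched on both strands. The Socs3 promoter (chr11:117969229-117969528, minus strand, peaks in shGFP and shLuc replicate 2) holds 2 copies, and the one nearest to the coding transcript start, TTCCAGGAA, is centred 57 bp upstream of it:

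Socs3 promoter: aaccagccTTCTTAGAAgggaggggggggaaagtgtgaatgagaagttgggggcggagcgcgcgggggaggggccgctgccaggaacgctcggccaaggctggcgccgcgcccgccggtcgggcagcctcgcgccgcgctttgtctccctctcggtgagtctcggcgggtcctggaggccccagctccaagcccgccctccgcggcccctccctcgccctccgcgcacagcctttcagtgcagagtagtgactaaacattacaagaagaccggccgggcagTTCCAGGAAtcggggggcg

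The Jak1 promoter region, found in all 4 libraries, holds 1 copy, TTCATCGAA, in intron 1, 679 bp downstream of the start (chr4:101264456-101264755, minus strand):

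Jak1 promoter region: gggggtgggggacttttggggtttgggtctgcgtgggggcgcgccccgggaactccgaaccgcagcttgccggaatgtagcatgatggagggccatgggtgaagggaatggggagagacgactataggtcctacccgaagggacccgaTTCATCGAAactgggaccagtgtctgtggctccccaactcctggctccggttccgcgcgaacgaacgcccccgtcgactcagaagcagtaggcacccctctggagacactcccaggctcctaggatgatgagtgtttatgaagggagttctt

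A region within the span of Lifr found in shLuc replicates 2 and 3 holds 3 copies, TTCCAGGAA, TTCACGGAA and TTCAAAGAA (chr15:7115454-7115753, plus strand):

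Lifr gene body: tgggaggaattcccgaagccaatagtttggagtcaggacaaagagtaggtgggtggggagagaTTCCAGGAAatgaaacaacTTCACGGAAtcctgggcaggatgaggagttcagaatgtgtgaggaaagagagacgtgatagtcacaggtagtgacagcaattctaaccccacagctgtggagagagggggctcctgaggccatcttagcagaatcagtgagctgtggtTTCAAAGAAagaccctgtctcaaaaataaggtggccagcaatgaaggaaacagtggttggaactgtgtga

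Downstream of Jak2, a region found in all 4 libraries at the start of Rln1, the relaxin gene, holds 1 copy, TTCACTGAA (chr19:29334171-29334470, written on the plus strand of Jak2):

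Jak2 downstream flank: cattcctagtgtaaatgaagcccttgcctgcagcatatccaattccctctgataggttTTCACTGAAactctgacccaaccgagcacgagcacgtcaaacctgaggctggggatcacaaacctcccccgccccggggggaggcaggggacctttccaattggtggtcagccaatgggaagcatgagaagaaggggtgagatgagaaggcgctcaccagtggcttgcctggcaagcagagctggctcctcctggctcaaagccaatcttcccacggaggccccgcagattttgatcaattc

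The promoters of Lifr (chr15:7129399-7129698, plus strand) and Stat3 (chr11:100939549-100939848, minus strand) were listed in all 4 libraries without this motif, as was the sole region away from any transcript start that all 4 libraries shared, which lies downstream of Socs3 (chr11:117949649-117949948, minus strand):

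Lifr promoter: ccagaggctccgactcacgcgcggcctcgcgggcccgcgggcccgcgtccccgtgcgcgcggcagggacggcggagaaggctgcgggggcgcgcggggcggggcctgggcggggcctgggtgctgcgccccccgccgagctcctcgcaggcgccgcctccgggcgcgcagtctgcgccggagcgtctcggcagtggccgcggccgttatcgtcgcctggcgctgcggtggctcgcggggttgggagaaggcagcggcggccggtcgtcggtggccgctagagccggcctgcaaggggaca

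Stat3 promoter: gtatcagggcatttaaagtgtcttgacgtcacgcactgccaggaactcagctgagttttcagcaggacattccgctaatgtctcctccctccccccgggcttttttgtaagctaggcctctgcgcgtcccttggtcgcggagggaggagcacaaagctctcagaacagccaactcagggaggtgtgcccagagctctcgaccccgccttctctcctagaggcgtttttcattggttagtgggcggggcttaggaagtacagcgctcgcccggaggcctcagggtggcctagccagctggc

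Socs3 downstream region: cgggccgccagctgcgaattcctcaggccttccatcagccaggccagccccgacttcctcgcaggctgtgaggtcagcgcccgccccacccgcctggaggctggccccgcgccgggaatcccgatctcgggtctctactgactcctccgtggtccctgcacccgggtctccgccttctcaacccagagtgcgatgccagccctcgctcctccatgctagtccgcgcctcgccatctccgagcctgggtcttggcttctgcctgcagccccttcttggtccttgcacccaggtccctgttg

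The 3 stretches differ in composition: 80.7% of bases were G or C in the Lifr promoter, 59.0% in the Stat3 promoter and 68.3% in the region downstream of Socs3.

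The motif was counted against the same windows elsewhere. Of 8 RefSeq promoter windows of the members (250 bases before to 50 after a RefSeq start, all 7 genes matched, Lifr with 2 windows) 1 held TTCNNNGAA, that of Socs3, against 7.74% of 20150 such windows of protein-coding genes. The copy in the Socs3 window (117969317 to 117969616) was TTCTTAGAA. TTCCAGGAA lay outside this window, which follows the RefSeq start and not the GENCODE start used above. Of the 42 regions 10 held TTCNNNGAA, against 19.5% of all regions, whose median width was 680 bp beside 747.5 bp here. The 6 regions with the motif that are not printed above were the flank region upstream of Lifr (TTCAAAGAA, inside the peaks of 3 libraries), the one 23019 bp upstream of Il6st (TTCCCTGAA, 2 libraries), the Jak2 promoter region (TTCGCAGAA, 685 bp upstream of the start and inside 1 library's peak), the start of Stat5a and 2 flank regions of Socs3. The GC box GGGCGG, read on both strands, stood in 7 of the 8 promoter windows and in 47.8% of all such windows. A match to these letters is not a measured binding site.

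A promoter peak, defined as lying within 1 kb of any transcript start of the gene, was listed for each of the 7 genes in at least 1 library, and 5 had one in all 4: Lifr, Jak1, Jak2, Stat3 and Ptpn11. By library, 7 of 7 had one in shGFP, 5 in shLuc replicate 1, 7 in replicate 2 and 6 in replicate 3. Among all protein-coding genes the shares were 60.7%, 46.8%, 60.3% and 55.1% in the same order, 42.5% had a promoter peak throughout the 4 libraries and 35.3% lacked one in each. The list is short, and these counts describe it without setting it apart.

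**Figure D1:**
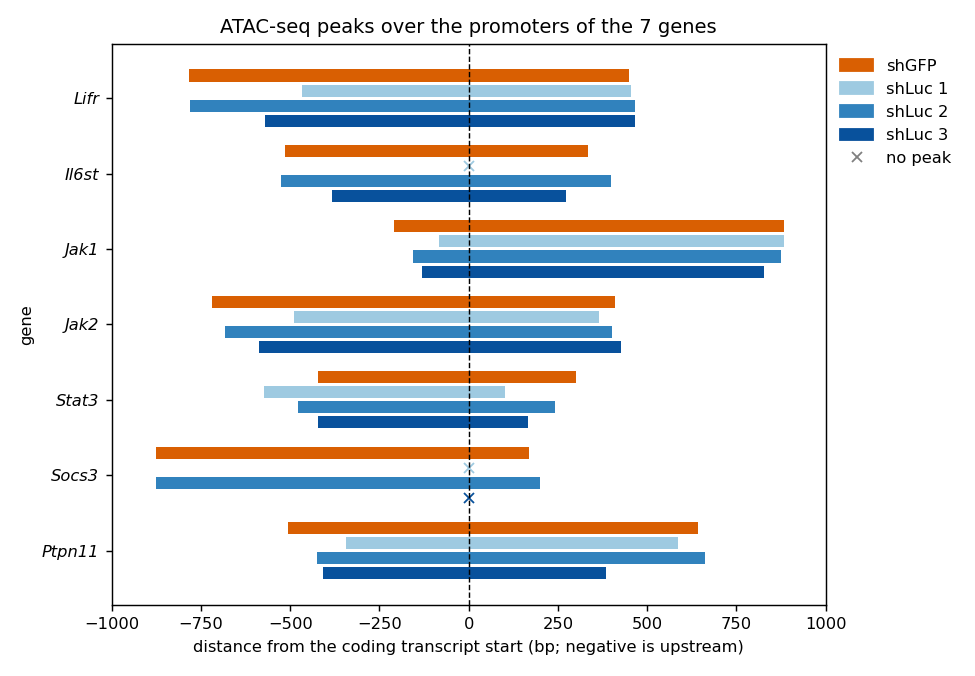
Extent of the promoter peaks of the 7 genes in each library, as the distance in bp from the most upstream coding transcript start inside the promoter region (dashed line). A cross stands for a library with no peak. Only peaks of the region that holds this start are drawn, so a further region inside Stat3 that met the 1 kb rule is left out. All 25 peaks drawn span the start. Il6st lacks one in shLuc replicate 1 and Socs3 in shLuc replicates 1 and 3.

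Of the receptor chains, Lifr (chromosome 15, 7090614 to 7197489, plus strand) had a promoter peak of 1234 bp in shGFP and of 925, 1248 and 1038 bp in shLuc replicates 1, 2 and 3 (mean 1070 ± 164, SD, n = 3). The groups overlapped, with shLuc replicate 2 the widest. The peak lay over exon 1 of the transcript Lifr-201, and its downstream edge fell within 17 bp in the 4 libraries while its upstream edge ranged over 316 bp. Lifr has starts in 4 places, and 3 of them, also starts of coding transcripts, had no peak within 1 kb in any library: those at 7090614, at 7140542 to 7140549 and at 7154353. The listed promoter peaks covered the annotated starts of 3 transcripts, between 7129559 and 7129572.

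Il6st (chromosome 13, 112464070 to 112510086, plus strand), the gene of gp130, had a promoter peak of 849 bp in shGFP, none in shLuc replicate 1, and 924 and 656 bp in shLuc replicates 2 and 3. Where present, it covered the most upstream start, from 383 to 525 bp before it to 272 to 398 bp after it. The other starts of Il6st, at 112467593, 112472599 and 112475008 to 112475046, had no peak within 1 kb in any list. Replicate 1, the library without a peak, also had the shortest list.

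Both Janus kinase genes were open at the promoter in all 4 libraries. Jak1 (chromosome 4, 101152367 to 101265282, minus strand) had a peak of 1093 bp in shGFP and of 967, 1031 and 957 bp in shLuc (mean 985 ± 40.1, SD, n = 3). It lay mostly inside the gene, reaching 826 to 884 bp past the start and only 82 to 208 bp before it. Jak2 (chromosome 19, 29251828 to 29313080, plus strand) had a peak of 1130 bp in shGFP and of 854, 1084 and 1015 bp in shLuc (mean 984 ± 118, SD, n = 3). It extended mostly upstream, 488 to 720 bp before the start and 365 to 426 bp after it. For both genes shGFP was the widest and exceeded the shLuc mean by more than the SD.

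Stat3 (chromosome 11, 100885098 to 100939540, minus strand) had the narrowest peak over the coding start among the members with one in all 4 libraries: 723 bp in shGFP and 678, 721 and 590 bp in shLuc (mean 663 ± 66.8, SD, n = 3). Here the difference between shGFP and shLuc was within the SD. A further region met the 1 kb rule inside the gene, over exon 19 and near starts of transcripts annotated as retained introns. Its width was 558 bp in shGFP and, in shLuc replicate 2, 329 bp, with no peak in the other lists. Summed over both regions, promoter peaks of Stat3 covered 1281 bp in shGFP and 678, 1050 and 590 bp in shLuc. Of the coding genes with a promoter peak in all 4 libraries, 71.0%, 43.0%, 54.8% and 10.9% had fewer such bases in the same libraries.

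Socs3 (chromosome 11, 117966079 to 117970047, minus strand), the feedback inhibitor, had a promoter peak of 1045 bp in shGFP and of 1076 bp in shLuc replicate 2, and none in shLuc replicates 1 and 3. The upstream edge was the same base in both libraries, 875 bp before the coding start, and the downstream edges differed by 31 bp. Both peaks contained the 2 STAT motifs shown above.

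Ptpn11 (chromosome 5, 121130533 to 121191397, minus strand), the gene of SHP2, had a promoter peak of 1149 bp in shGFP and of 932, 1088 and 793 bp in shLuc (mean 938 ± 148, SD, n = 3). The shGFP peak was the widest and exceeded the mean by more than the SD. A start of a noncoding transcript at 121143635 had no peak.

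Over the members, the 21 groups of starts lying within 1 kb of each other included 13 with a coding transcript, of which 7 had a peak, exactly 1 per gene. Of the 8 groups with noncoding transcripts alone 1 had a peak, the one inside Stat3. The shares of such groups with a peak over all coding genes were not computed, so these counts do not set the members apart.

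Widths differed between the lists, but at the members they did not simply follow list length. In shLuc replicate 1, the shortest list, the peak was wider than in replicate 3 at Jak1 (967 and 957 bp), Stat3 (678 and 590 bp) and Ptpn11 (932 and 793 bp). At Lifr and Jak2 it was narrower. The median of the summed promoter peak bases was taken over the 9327 protein-coding genes with a promoter peak in all 4 libraries. It was 1042 bp in shGFP and 729, 1005 and 952 bp in shLuc replicates 1, 2 and 3. There shGFP was widest, as at Jak1, Jak2, Stat3 and Ptpn11. Summed over the 7 genes, promoter peaks covered 7781 bp in shGFP and 4356, 7501 and 5049 bp in shLuc (mean 5635 ± 1652, SD, n = 3). In this sum an absent peak counts as 0, at Il6st in shLuc replicate 1 and at Socs3 in shLuc replicates 1 and 3. The sum thus mixes presence of a peak with its width, unlike the median above, and it includes the internal region of Stat3. The largest parts of the shGFP excess over the shLuc mean were at Socs3 (686 bp), Stat3 (508 bp) and Il6st (322 bp). The excess of 2146 bp in shGFP was larger than the SD, but it was 1506 bp without shLuc replicate 1, within the SD of 1734 of the remaining shLuc libraries, and 3078.5 bp without replicate 2, beyond the SD of 490 there. Without replicate 3 it was 1852.5 bp, within an SD of 2224. With the widest 17860 peaks of each list, it was 1171 bp, within an SD of 1597.

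**Figure D2:**
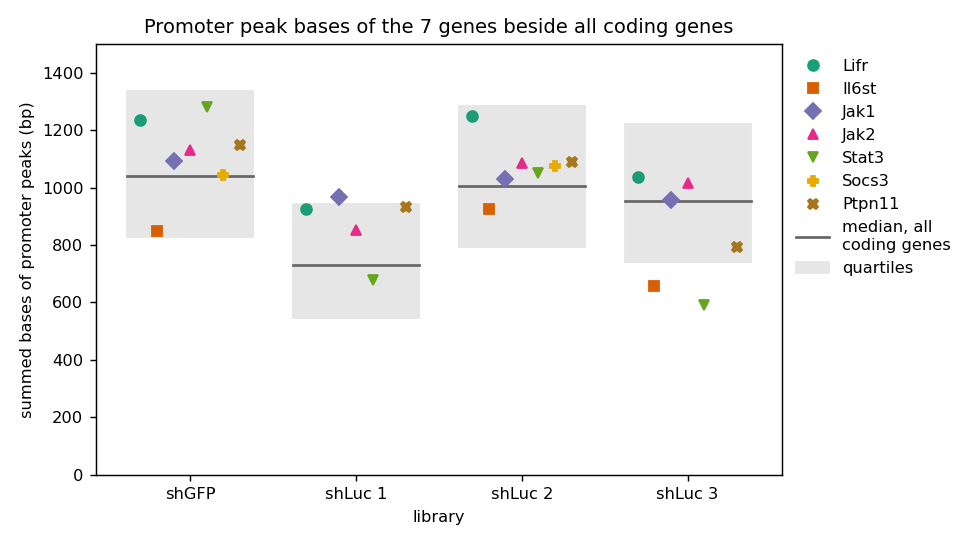
Summed bases in bp of the promoter peaks of each of the 7 genes by library, beside the median (line) and quartiles (grey) of the same sum over the 9327 coding genes with a promoter peak in all 4 libraries. Points below the lower quartile are Stat3 (590 bp) and Il6st (656 bp), both in shLuc replicate 3, and Jak1 in shLuc replicate 1 (967 bp) lies above the upper quartile.

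Coding genes outside the lists used here were compared with the 5 members that had a promoter peak in all 4 libraries. The genes most like a member were those whose largest difference from it in summed promoter peak bases, over the 4 libraries, was smallest. For Jak1 these were Smap2 (19 bp) and Sass6 (24 bp), and for Lifr Pygo1 (33 bp) and Plcxd2 (44 bp). For Jak2 they were Zfp438 (33 bp) and Nek5 (35 bp), for Ptpn11 Zdhhc6 (32 bp), and for Stat3 Cct5 and Fam173b (58 bp each, with equal values). The Stat3 sums include its internal region, and likeness here is of peak width alone.

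Away from their own promoters the 7 genes had 34 regions, 8 in gene bodies and 26 in the flanks. Of all 42 regions 11 were found in all 4 libraries, 13 in 3, 8 in 2 and 10 in 1. Over the genome 27.2% of regions were found in all 4 libraries and 28.3% in 1, against 26.2% and 23.8% at these genes. Peaks of shGFP were in 37 of the 42 regions, those of shLuc replicates 1, 2 and 3 in 13, 31 and 28, and over all regions the shares were 79.4%, 33.8%, 78.4% and 59.8%.

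The regions that all libraries shared were almost all at transcript starts. Of the 11, 5 were the promoters of members, 5 lay within 1 kb of the start of a neighbouring gene, and 1 lay away from any start. In the genome 63.2% of regions in all 4 libraries were within 1 kb of a start. Of the 31 regions in 1 to 3 libraries 10 were near a start (32.3%), 3 of them promoters of members, against 21.2% in the genome. The regions here were taken around genes, so the members' own promoters enter by the rule. The genome shares also cover regions far from genes and are not a matched comparison. None of the 8 regions in gene bodies, all away from starts, was found in all 4 libraries. Over the genome, 9047 of the 14318 regions in all 4 libraries were near a start, against 8122 of the 38396 in 1 to 3. Regions away from starts were thus less often shared by all 4 libraries there too. The share among gene body regions of the genome was not computed, and 8 regions are too few to set these bodies apart. A region in the gene body was seen for 4 of 7 members, Lifr, Il6st, Jak1 and Jak2, and for 33.4% of all coding genes. The 33.4% is not matched for gene length, which ranged from 3969 to 112916 bp among the members.

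**Figure D3:**
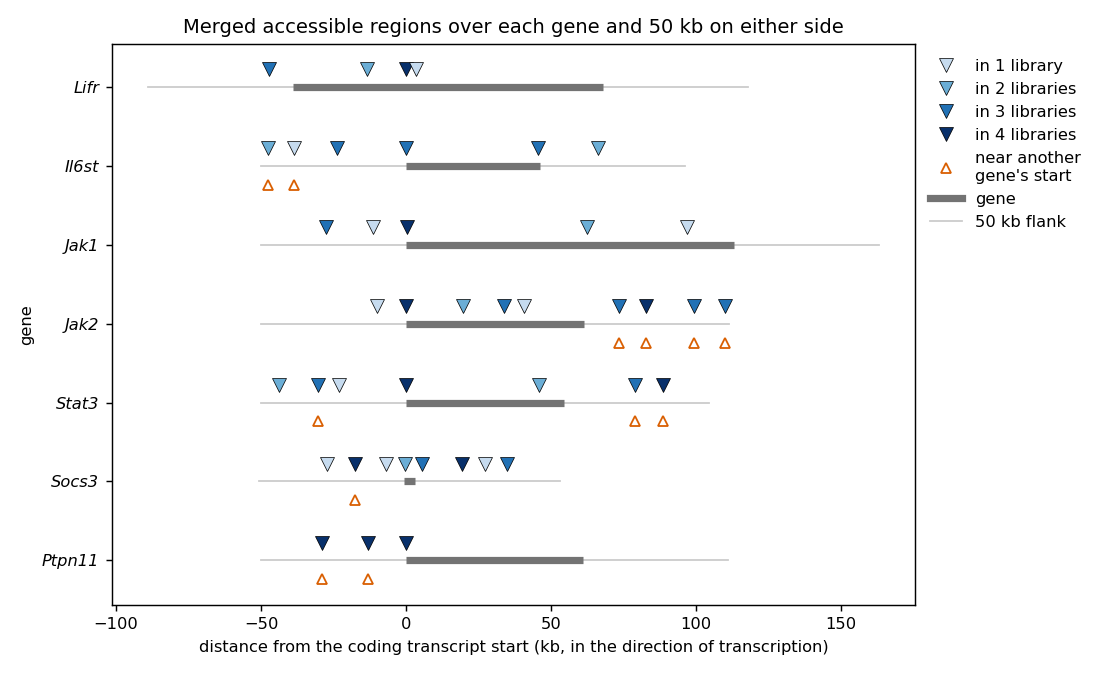
Merged regions (filled triangles, darker where more libraries listed them) over each gene (grey bar) and 50 kb on either side. Distance is in kb from the most upstream coding transcript start inside the promoter region, in the direction of transcription. An open triangle below marks a region within 1 kb of another gene's start. Regions in all 4 libraries stand at the genes' own promoters or above open triangles, except 1 downstream of Socs3.

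The members differed in how many regions surrounded them. Ptpn11 had 3 regions and Lifr 4, Jak1 5, Il6st 6, Stat3 7, Socs3 8 and Jak2 9, beside a median of 5 over coding genes (quartiles 3 and 7). Gene length adds to this number, and Socs3, by far the shortest gene at 3969 bp, had 7 of its 8 regions in the flanks.

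For Jak2, 3 regions lay in the body, in intron 8 (758 bp in shGFP, 823 and 826 bp in shLuc replicates 2 and 3), over exon 3 (370 bp in shGFP, 313 bp in shLuc replicate 3) and in intron 12 (545 bp, shGFP alone). Of 5 flank regions 4 were downstream and within 1 kb of starts of Insl6, Rln1 and Plgrkt. The one at Rln1, 795 bp in shGFP and 729, 795 and 656 bp in shLuc (mean 727 ± 69.5, SD, n = 3), was in all 4 libraries. The widths of the groups overlapped.

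Around Socs3 the region shared by all 4 libraries and far from any start lay 19078 bp from the nearest Socs3 start, downstream of the gene (chromosome 11, 117949411 to 117950108). It was 674 bp wide in shGFP and 545, 654 and 649 bp in shLuc (mean 616 ± 61.5, SD, n = 3), and it held no STAT motif and 5 GC boxes. It was thus listed in 2 libraries in which the Socs3 promoter was not. A nearer region, 5180 bp downstream, was 787 bp wide in shGFP and 805 and 482 bp in shLuc replicates 2 and 3. Upstream, a region of 1180 bp in shGFP alone, 5405 bp from the first start, held 2 STAT motifs, TTCTGGGAA and TTCCCAGAA. The other region in all 4 libraries was at the start of Pgs1, a phospholipid synthesis gene (669 bp in shGFP, 555, 727 and 568 bp in shLuc).

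Stat3 shares its neighbourhood with other STAT genes. Downstream of it, the start of Stat5b had a region in all 4 libraries (1356 bp in shGFP, 1040, 1353 and 1272 bp in shLuc; mean 1222 ± 162, SD, n = 3). The start of Stat5a had one of 763 bp in shGFP and of 479 and 545 bp in shLuc replicates 2 and 3, and none in replicate 1. The region at Stat5a held 1 STAT motif, TTCGGGGAA, and neither the Stat5b nor the Stat3 promoter held one.

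Lifr had 1 flank region, 8218 bp upstream of its first start, of 506 bp in shGFP and 499 and 448 bp in shLuc replicates 2 and 3. Its widest body region, with 3 STAT motifs, lay between the first start and the accessible promoter, outside the transcript Lifr-201, and was 853 and 1149 bp wide in shLuc replicates 2 and 3. It was absent from shGFP, the longest list. Regions of similar width, within 10%, held at least 1 such motif in 24.6% of cases. The share of them with 3 was not computed.

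For Il6st the widest flank region, 23019 bp upstream, was 1588 bp in shGFP and 1676 and 1455 bp in shLuc replicates 2 and 3. Its body region lay over exon 17, the last exon, with 340 bp in shGFP and 412 and 391 bp in the same shLuc replicates. For Jak1 a flank region 26844 bp upstream was 1487 bp in shGFP and 1388 and 1496 bp in shLuc replicates 2 and 3, and the widest body region, in intron 1, was 668 bp in shGFP and 531 bp in shLuc replicate 2. None of these 4 regions was in shLuc replicate 1. Ptpn11 had no body region, and its 2 flank regions, both in all 4 libraries, lay at starts of neighbouring genes. The nearer, 12806 bp upstream, was 481 bp wide in shGFP and 327, 388 and 793 bp in shLuc (mean 503 ± 253, SD, n = 3). The farther was at Hectd4 (670 bp in shGFP and 797, 929 and 936 bp in shLuc; mean 887 ± 78.3, SD, n = 3). At Hectd4 shGFP was the narrowest, against the order at most promoters of the members.

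Median composition differed between the classes of regions, whose ranges overlapped. The 8 promoter regions had a median GC content of 66.7% and a median ratio of observed to expected CpG of 0.837, the 26 flank regions 54.6% and 0.420, and the 8 body regions 47.2% and 0.315, beside 52.6% and 0.343 over all 52714 regions. Of the flank regions 12 lay at the start of another gene, and that at Stat5b, with 69.4% and 0.811, was within the range of the members' promoters. Within the promoter class, the region over exon 19 of Stat3 was lowest with 53.0% and 0.255. Bases masked as repeats made up a median of 4.77% of promoter regions, 2.69% of body regions and 9.73% of flank regions, against 10.96% over all regions.

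A further 42 genes of the pathway were read by role. A promoter peak was listed in all 4 libraries for 19 of them, in 1 to 3 for 16 and in 0 for 7, against the 42.5% and 35.3% of coding genes given above (45.2% and 16.7% here). Of 7 ligand genes 5 had no listed promoter peak: Lif itself, Osm, Ctf1, Cntf and Il6. Clcf1 had a peak of 1079 bp in shGFP and one of 865 bp in shLuc replicate 2, and Il11 had one in all 4. Of the other receptor chains Il6ra and Il11ra1 had one in all 4 libraries, Osmr in all but shLuc replicate 1, and Cntfr in shGFP alone (500 bp). Tyk2, a widely used Janus kinase, had one in all 4 libraries, and Jak3, which serves lymphoid cytokine receptors, in none.

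Among the other STAT genes Stat2 and Stat5b had a promoter peak in all 4 libraries, Stat5a in 3, and Stat4 and Stat6 in shGFP and shLuc replicate 2. Of the other inhibitors 8 of 11 had one in all 4 libraries, and each of the 11 had a peak in at least 2. The exceptions were Socs1, without a peak in shLuc replicate 3, Ptpn6, without one in replicate 1, and Socs2, with one of 1176 and 729 bp in shLuc replicates 2 and 3 alone. Of the adaptors Grb2, Gab1 and Shc1 had one in all 4 libraries and Sos1 in 2.

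Of 8 known STAT3 targets of ESCs only Tfcp2l1 had a promoter peak in all 4 libraries (688 bp in shGFP and 286, 770 and 630 bp in shLuc). Gbx2 had one in 3 libraries, Pim1, Pim3 and Klf4 in 2, Bcl3 (965 bp) and Myc (860 bp) in shLuc replicate 2 alone, and Junb in none. In shLuc replicates 1 and 3, 2 of the 8 had one, in shGFP 5 and in shLuc replicate 2, 6. Over all coding genes the shares were 60.7% in shGFP and 46.8%, 60.3% and 55.1% in shLuc replicates 1, 2 and 3. Among them 42.5% had a promoter peak in all 4 libraries, and 8 targets are too few to set them apart. Pim1, Pim3 and Socs3 had a peak in shGFP and shLuc replicate 2, the longest lists, and none in the shorter ones. So did Clcf1, Stat4, Stat6, Sos1 and the fibroblast gene Col1a2. Of all regions, at promoters or elsewhere, 11.6% had this pattern, and the share among gene promoters alone was not computed. A missing peak in a short list cannot be told apart from closed chromatin in these files.

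**Figure D4:**
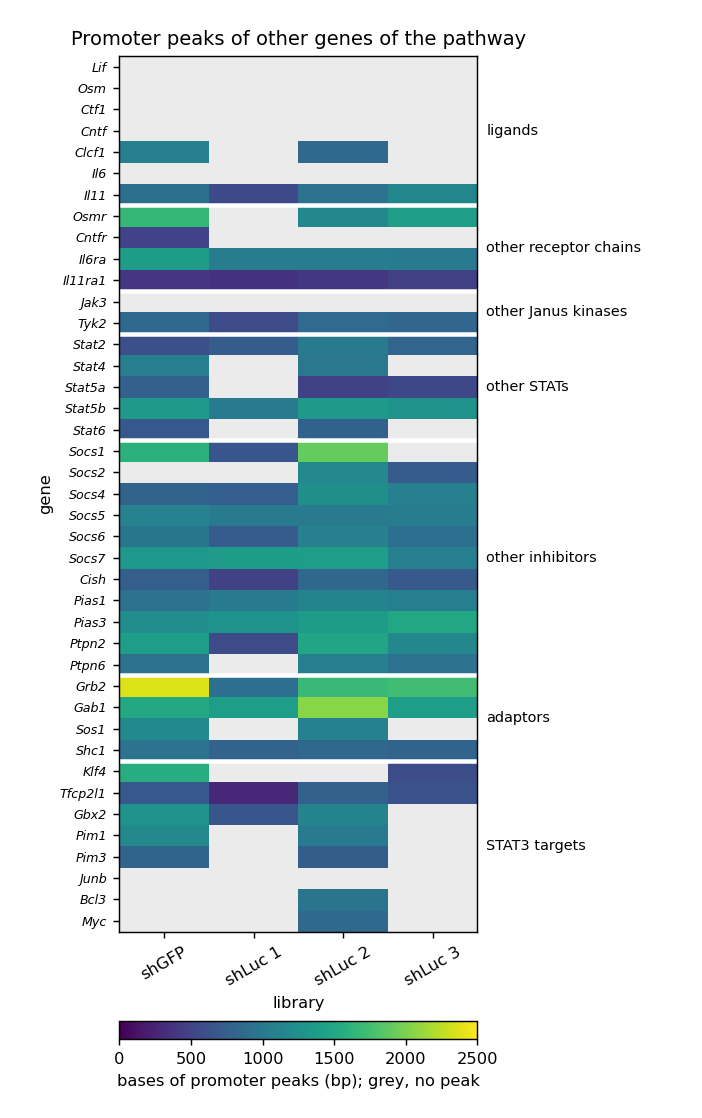
Summed bases in bp of the promoter peaks (colour) of other genes of the pathway in each library, by role; grey cells had no peak. Inhibitors and adaptors are mostly filled in all 4 columns, ligands are mostly grey, and STAT3 targets are filled most often in shGFP (5 of 8) and shLuc replicate 2 (6 of 8). Over all coding genes the shares in these 2 libraries were 60.7% and 60.3%.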

How the data were processed

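Per the labels, the authors' processing notes name bcl2fastq, Bowtie2, MACS2 and mm10, without a peak threshold. The study's methods, in a section on ChIP-seq and ATAC-seq that speaks of downloaded data, keep the best alignment, place reads with equal alignments at random and use concordant pairs alone. Whether these steps made the present lists, and whether reads were shifted for the transposase are not given in the sources used here. The deposited files give the start and end of each peak and no other value, 1 list per library, so replicates were not pooled. The lists hold no depth; read totals given with the study are not used here.

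Peaks were read with Python 3.11.15 and numpy 2.4.6 and drawn with matplotlib 3.10.9. A promoter peak came within 1 kb, by its nearest edge, of any transcript start of the gene (GENCODE mouse release 21). Gene body regions exclude promoter regions, and flanks reach 50 kb beyond the gene. Peaks overlapping by 1 bp or more were joined. Sequences and repeat masking came from RefSeq GRCm38. Coordinates count from 1. Interval functions were tested on simulated lists, where 1200 of 1200 peak sets were right. The members, the gene lists and the alternatives were chosen with earlier results of these data known. All members are named; other pathway genes are named where they lacked a peak or differed between libraries, and regions where all 4 libraries shared them or where they were the widest in a gene body. Some genes that these rules select are not reported here. Further regions and pathway genes were named after their values were seen. The labels number the shLuc replicates without saying whether they came from separate cultures.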

Additional observations from a re-analysis of the deposited data

How the results depend on the processing

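Of 44 comparisons of 6 results with 12 alternative settings, 39 moved by less than 1.5 times for a count, or by less than the SD for the difference in promoter peak bases, and 5 moved further. The number of members with a promoter peak in all libraries stayed at 5 with starts within 500 bp or 5 kb, coding transcripts only, or peak centres, fell to 4 when each list was shortened to its 17860 widest peaks, the length of the shLuc replicate 1 list, and ranged from 5 to 6 when a shLuc library was left out (6 without replicate 1). In the shortened lists the peak of Stat3 was lost in shGFP and shLuc replicate 3, since peaks under 727 and 606 bp were dropped there. Socs3 still had a promoter peak in shGFP and shLuc replicate 2 alone, and Il6st in all but shLuc replicate 1. The same setting left 2 body regions, 24 regions within 50 kb and 6 found in all libraries, because fewer peaks enter. With flanks of 20 kb there were 26 regions, by construction. Leaving out a shLuc library gave 11 to 23 regions found in all that remained (23 without replicate 1). No member lacked a promoter peak in all libraries under any setting that was run for that count. The lists hold no depth, which limits every statement on an absent peak.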

Other observations

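A region over the start of Cavin1, the gene of a caveolar coat protein upstream of Stat3, was listed in shGFP (1798 bp), shLuc replicate 3 (1238 bp) and shLuc replicate 1 (343 bp) but not in shLuc replicate 2, although that list is more than 2 times as long as that of replicate 1. Over the genome 274 of 52714 regions (0.520%) were missing from shLuc replicate 2 alone. A region farther upstream, 43606 bp from Stat3, was listed in shLuc replicate 1 (695 bp) and shGFP (332 bp) only, a pattern held by 434 regions (0.823%). Both were picked after their values were seen.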
